A study of Mus musculus with 2 samples.

Results

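The liver plasma protein genes described here are 34 mouse genes, chosen by name, of which all but 1 encode proteins that hepatocytes secrete into the blood. They comprise carriers of iron, heme, hormones and vitamins, apolipoproteins, the fibrinogen chains, clotting and fibrinolysis factors, and protease inhibitors with their relatives. The exception is Cps1, which encodes the mitochondrial enzyme that feeds ammonia into the urea cycle of hepatocytes. A probe row with the gene's name was found for 33 of the 34 genes, which together had 41 of the 39429 probes on the array, and 31 were among the 21429 genes tested.

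RNA of mouse ureters was profiled at E16.5 on 2 dual-colour whole-genome oligonucleotide arrays to ask which transcripts depend on Pparg in the ureteric epithelium. Each array carried 1 Pparg-cKO pool against 1 control pool of sex-sorted ureters on an NMRI background, female on array 1 (the female array) and male on array 2 (the male array). Pparg-cKO embryos were Pax2-cre/+; Pparg(fl/fl) and control embryos Pparg(fl/?), described in the study's methods as littermates without cre. The deletion was thus limited to cells with a history of Pax2-cre activity, which include the epithelial lining of the ureter but also collecting ducts and other derivatives of the nephric duct, and it took out part of the floxed gene. The stage label of the second channel read E14.5, whereas the titles and protocols read E16.5. Because embryos were pooled and each array held 1 pair of pools, the number of arrays, 2, limited the precision of every value, and the spread between arrays also holds the difference in sex and in dye.

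Hepatocytes make most circulating proteins, and in the fetus alpha-fetoprotein is the counterpart of adult albumin. Liver-enriched transcription factors of the HNF1, HNF4, C/EBP and FOXA families drive these genes together. The visceral endoderm of the yolk sac also makes many of them, and a few, such as transferrin and the retinol-binding protein Rbp4, are made in further tissues.

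The sample labels and the deposited fold changes disagreed on the genotype behind each dye, so the RNAs are named by dye. RNA A carried the red dye AlexaFluor647 in the female hybridisation but the green dye AlexaFluor555 in the male one, and RNA B the opposite dye each time. RNA A was control by the sample labels on both arrays, but it was Pparg-cKO if the deposited fold changes are read as mutant over control, since these rose with RNA A over RNA B (Pearson r = 0.997 on either array, across 14585 genes with signals of at least 100 in all 4 channels). Under the first reading a value brighter in RNA B was higher in Pparg-cKO, and under the second, which is how the study's text reads its arrays, it was higher in control. All ratios below are log2 of RNA A over RNA B. The targeted gene, Pparg, had processed signals of 11295 (RNA A) and 7430 (RNA B) on the female array, and of 12888 and 7872 on the male array, which gave log2 ratios of 0.60 and 0.71, and whether its probe lies in the removed exons was not analysed here. Over all genes tested, the ratios of the arrays had an SD of 0.34 each and a Pearson r of -0.05 across genes, which are not independent replicates.

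The main pattern among the liver plasma protein genes was a low level in 1 of the 4 channels, RNA A of the male array. Of the 31 genes tested, 19 were at least 1.5-fold brighter in RNA B than in RNA A on the male array and 0 were at least 1.5-fold brighter in RNA A, whereas all 31 lay within 1.5-fold on the female array. The 19 genes make 61.3% of those tested. Among all genes tested on the male array, 3.71% were at least 1.5-fold brighter in RNA B and 3.47% at least 1.5-fold brighter in RNA A, and the corresponding shares on the female array were 4.91% and 2.68%. The median log2 ratio of the 31 genes was -0.78 on the male array, where the median of all genes tested was 0.03, and -0.07 on the female array. In whole ureters, fewer cells of a type and less RNA per cell cannot be told apart.

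No gene passed a test over both arrays. In limma, 0 of the 31 genes had an adjusted p under 0.05, against 0.313% of all genes tested, and 6 had an unadjusted p under 0.05, as did 3.78% of all genes tested. The lowest limma adjusted p was 0.614, for Ttr, and those of the other 30 genes rounded to 1. Likewise, 0 genes were at least 1.5-fold brighter on both arrays with a signal of 100 in the brighter RNA, a filter that 0.23% of all genes with values passed in RNA B and 0.157% in RNA A. Since the female and male arrays differed in dye as well as in sex, these cannot be told apart as sources of their difference.

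**Figure D1:**
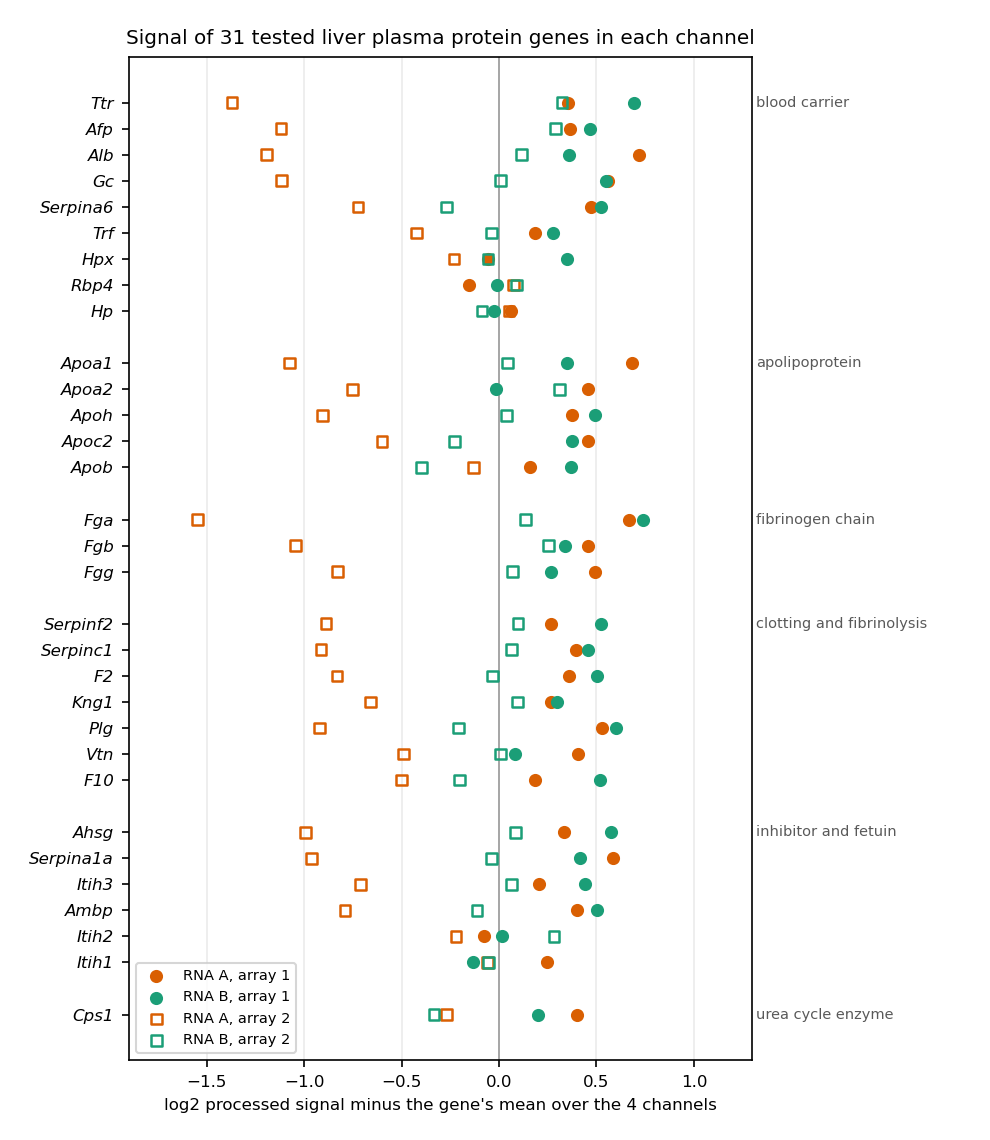
Processed signal of the 31 tested liver plasma protein genes in each of the 4 channels, as log2 difference from the gene's own mean over the channels, grouped by role. RNA A of array 2 (open orange squares) was the dimmest channel for 26 of the 31 genes.

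The promoters of 3 genes that were low in RNA A of the male array are shown, with that of a gene that was not, because genes of this kind share regulators. A window of 250 bases before the transcription start was found in the RefSeq table (GRCm38.p6) for 27 of the 34 genes. Capitals mark the motifs searched: TATAAA on the coding strand, and on both strands GTTAAT (an HNF1 half-site), CAAAGTCCA (HNF4), TTGCNNCAA (C/EBP) and TGTTTAC (FOXA). Afp lies at chr5:90490464-90490713 (plus strand), Alb at chr5:90460620-90460869 (plus strand), Fgb at chr3:83049864-83050113 (minus strand), and the window of Rbp4 nearer to the gene body at chr19:38124812-38125061 (minus strand). Each is written from 5′ to 3′ along the gene.
Afp: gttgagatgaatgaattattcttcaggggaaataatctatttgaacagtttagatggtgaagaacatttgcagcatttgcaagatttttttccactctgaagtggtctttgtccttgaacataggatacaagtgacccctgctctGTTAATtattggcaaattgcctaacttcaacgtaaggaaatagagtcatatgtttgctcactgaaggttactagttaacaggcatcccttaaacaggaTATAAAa
Alb: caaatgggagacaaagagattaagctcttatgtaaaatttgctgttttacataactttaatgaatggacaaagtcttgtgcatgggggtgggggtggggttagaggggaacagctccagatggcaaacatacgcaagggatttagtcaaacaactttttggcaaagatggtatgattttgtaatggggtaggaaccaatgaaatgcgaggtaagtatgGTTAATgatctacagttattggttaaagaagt
Fgb: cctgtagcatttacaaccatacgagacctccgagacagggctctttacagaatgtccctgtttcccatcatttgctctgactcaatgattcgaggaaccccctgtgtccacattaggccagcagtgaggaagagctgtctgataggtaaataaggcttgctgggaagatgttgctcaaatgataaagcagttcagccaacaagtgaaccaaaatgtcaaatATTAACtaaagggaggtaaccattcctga
Rbp4: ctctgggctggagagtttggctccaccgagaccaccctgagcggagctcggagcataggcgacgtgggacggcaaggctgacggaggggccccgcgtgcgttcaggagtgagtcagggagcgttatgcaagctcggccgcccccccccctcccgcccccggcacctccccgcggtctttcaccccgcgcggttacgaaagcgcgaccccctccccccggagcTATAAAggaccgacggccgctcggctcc
The motifs did not overlap in these windows. The HNF1 half-site began 105 bases before the start of Afp and 32 before that of Alb, and its reverse complement 29 bases before the start of Fgb. The Rbp4 window shown held a TATA motif 28 bases before the start, and the other Rbp4 window, further upstream, held only the FOXA motif.

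Over the 27 genes with a window, GTTAAT was found in 10 (37.0%), whereas 7.49% of 27025 genes in the table held it in any of their windows. The 10 genes were Afp, Alb, Apoc2, Fga, Fgb, Gc, Vtn, Serpina1a, Serpina1b and Itih1. TATAAA was found in 6 (22.2%, against 8.94% of all genes), TGTTTAC in 4 (14.8%, against 3.54%), TTGCNNCAA in 1 (3.7%, against 1.98%) and CAAAGTCCA in 0 (against 0.45%). GTTAAT was in 6 of the 16 genes with a window that were at least 1.5-fold brighter in RNA B on the male array, and in 3 of the 8 tested genes with a window that were not. The genes shown, where the 3 low ones held GTTAAT and Rbp4 did not, thus do not stand for their groups. A match describes the letters of a window and does not mark a bound site.

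Of the 9 blood carriers, 4 were at least 1.5-fold brighter in RNA B on the male array. Alb, which encodes albumin, the most abundant plasma protein after birth, had signals of 2598 (RNA A) and 2024 (RNA B) on the female array, and of 690.3 and 1708 on the male array. Afp, its fetal relative alpha-fetoprotein, had 3213 and 3454 on the female array, and 1150 and 3052 on the male array. In Afp 3 channels lay close together, whereas in Alb the same 3 ran from 1708 to 2598. In both genes RNA A of the male array stood below these 3 channels. The log2 ratio of Alb was 0.36 on the female array and -1.31 on the male array (mean -0.47 ± 1.18, SD, n = 2 arrays), and that of Afp was -0.10 and -1.41 (mean -0.76 ± 0.92). RNA B thus exceeded RNA A on the male array by 2.47-fold for Alb and 2.65-fold for Afp. Over the 31 genes, the SD between the arrays ran from 0.03 (F10) to 1.18 (Alb).

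Ttr, which encodes the thyroxine carrier transthyretin, had the lowest ratio of the set on the male array. Its signals were 304.4 (RNA A) and 384.8 (RNA B) on the female array, and 92.2 and 297.8 on the male array. The log2 ratio was -0.34 on the female array and -1.69 on the male array, a 3.23-fold excess of RNA B, and RNA A was again the low channel of the male array. Gc, the vitamin D-binding protein gene, had signals of 124.6, 123.9, 39.0 and 85.2 in RNA A and RNA B of the female array and RNA A and RNA B of the male array, in that order. Its RNAs were level on the female array (log2 ratio 0.01), and on the male array its log2 ratio was -1.13.

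The other 5 carriers did not reach 1.5-fold on either array. Serpina6, which encodes the corticosteroid-binding globulin, had signals of 303.1 and 314.2 on the female array, and of 132.4 and 181.2 on the male array, with RNA A named first. For Trf, the iron carrier transferrin, they were 2383 and 2541, then 1561 and 2038. These genes leaned the same way on the male array, with log2 ratios of -0.45 and -0.38.

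The heme-binding protein gene Hpx had signals of 50.5 and 66.9 on the female array and of 44.8 and 50.6 on the male array, with log2 ratios of -0.41 and -0.18, so that its RNAs were further apart on the female array. Rbp4, which carries retinol in the blood, had 1719 and 1897, then 2016 and 2038, and its log2 ratios of -0.14 and -0.02 were both small. Hp, whose product haptoglobin binds free hemoglobin, had 71.6 and 67.3, then 71.0 and 64.5, and its 4 channels were level. RNA A of the male array was therefore not low for Rbp4 or Hp.

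**Figure D2:**
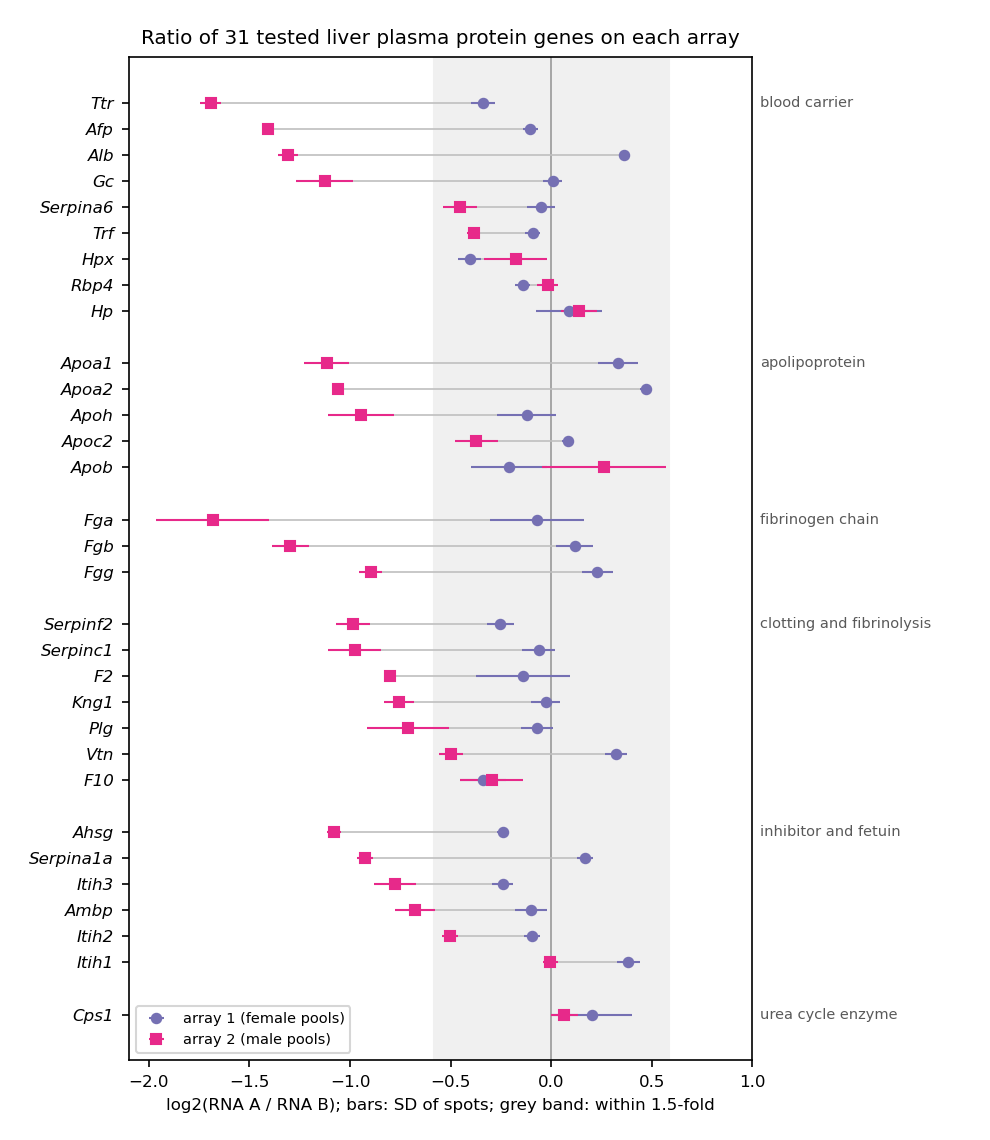
Log2 ratio of RNA A over RNA B for the 31 tested liver plasma protein genes, by role, on array 1 (circles, female pools) and array 2 (squares, male pools); bars give the SD over the spots of a probe. All circles lie within the 1.5-fold band, and 19 squares lie to its left.

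Of the 6 apolipoprotein genes, 5 were tested, and 3 of these were at least 1.5-fold brighter in RNA B on the male array. Apoa2, a structural protein of high-density lipoprotein, had signals of 3744 (RNA A) and 2702 (RNA B) on the female array, and of 1623 and 3387 on the male array. Apoa1, the main protein of the same particles, had 80.6 and 64.0, then 23.9 and 51.8. In both genes RNA A was the brighter RNA on the female array and the dimmer one on the male array, with log2 ratios of 0.47 and -1.06 for Apoa2 and of 0.33 and -1.12 for Apoa1. Apoh, which encodes a phospholipid-binding plasma glycoprotein, had 110.2 and 119.9, then 45.4 and 87.3, and its log2 ratio on the male array was -0.94. Apoc2, the activator of lipoprotein lipase, had 182.2 and 172.0, then 87.5 and 113.2, and both of its channels on the male array were below those on the female array while its ratio there was only -0.37.

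Apob, which encodes the scaffold protein of low-density lipoprotein, ran against the others. Its signals were 20.5 and 23.7 on the female array and 16.8 and 14.0 on the male array, and its log2 ratios of -0.21 and 0.26 had spot SDs of 0.19 and 0.31, so that both ratios were about the size of their spot SD. Its second probe, at lower signals, was not well above background on the male array and pointed the other way there (-2.14), so the Apob probes disagreed. Apoa4 was not well above background in any channel (signals between 1.97 and 4.02) and gave no usable ratio.

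The 3 fibrinogen chain genes, whose products assemble into the clot-forming hexamer, lie next to each other on chromosome 3, and all 3 were at least 1.5-fold brighter in RNA B on the male array. Fgb had signals of 125.7 (RNA A) and 115.9 (RNA B) on the female array, and of 44.5 and 109.3 on the male array. Fgg had 200.2 and 170.8, then 80.1 and 149.2, and Fga had 42.2 and 44.3, then 9.08 and 29.1. In each of them RNA A of the male array was the lowest channel by a wide margin. The log2 ratios on the male array were -1.30 for Fgb, -0.90 for Fgg and -1.68 for Fga, where the female array gave 0.12, 0.23 and -0.07. Fga was the least precise, with a spot SD of 0.28 on the male array, and its second probe was well above background in only 2 of the 4 channels. The probes that stand for Fgg, Fga and Fgb cover 82818825 to 82818884, 82835678 to 82835737 and 82846334 to 82846393 on chromosome 3 (mm9). Whether a probe lies in coding sequence or a UTR was not analysed here.

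Among the 7 clotting and fibrinolysis genes, 5 were at least 1.5-fold brighter in RNA B on the male array. Serpinf2, which encodes the plasmin inhibitor alpha-2-antiplasmin, had signals of 83.7 and 99.8 on the female array, and of 37.6 and 74.4 on the male array, with RNA A named first. Serpinc1, the antithrombin gene, had 95.1 and 99.3, then 38.5 and 75.7. Their log2 ratios on the male array were nearly equal, at -0.99 and -0.98. F2, which encodes prothrombin, had 77.7 and 85.7, then 34.01 and 59.2 (log2 ratio -0.80 on the male array). Kng1, the kininogen gene, had 212.8 and 216.8, then 111.8 and 188.8 (-0.76), and Plg, the plasminogen gene, had 38.3 and 40.3, then 14.0 and 23.0 (-0.71).

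The remaining genes of this group fell short of 1.5-fold on the male array. Vtn, which encodes the adhesive protein vitronectin, had signals of 209.5 and 167.5 on the female array and of 112.8 and 159.2 on the male array, so that RNA A was the brighter RNA on the female array and the dimmer one on the male array (log2 ratios 0.32 and -0.50). F10, the coagulation factor X gene, had 38.1 and 48.1, then 23.7 and 29.1. Its log2 ratios of -0.34 and -0.30 were alike on both arrays, and it was the most even of the genes with a ratio below 0 on both.

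The inhibitors and fetuins held 4 genes at least 1.5-fold brighter in RNA B on the male array, of 6 tested. Ahsg, which encodes fetuin-A, an abundant fetal plasma glycoprotein, had signals of 813.7 (RNA A) and 960.1 (RNA B) on the female array, and of 324.2 and 684.3 on the male array. Its log2 ratios were -0.24 and -1.08. Ambp, the precursor of alpha-1-microglobulin and bikunin, had 176.0 and 188.7, then 77.0 and 123.2 (-0.68 on the male array). The inter-alpha-inhibitor heavy chains, which pair with bikunin, did not run alike. Itih3 had 58.6 and 69.2, then 31.1 and 53.2 (-0.78 on the male array), Itih2 had 322.6 and 344.6, then 292.3 and 414.1 (-0.50), and Itih1 had 36.1 and 27.7, then 29.2 and 29.3. Itih1 was thus level on the male array although its probe lies near that of Itih3 on chromosome 14. Fetub was well above background only in RNA B of the female array, with signals between 2.16 and 5.997.

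Serpina1a, one of the alpha-1-antitrypsin genes, had signals of 648.4 (RNA A) and 576.9 (RNA B) on the female array, and of 221.9 and 421.2 on the male array, with log2 ratios of 0.17 and -0.92. The genes of this cluster on chromosome 12 are near-identical copies, and their probes cannot be assigned to single genes with confidence. Serpina1b had no probe under its own name, but its transcript is listed for probes named Serpina1c and Serpina1d, and the Serpina1c probe shares an unbroken run of 47 of its 60 bases with the Serpina1a probe. The representative probe of Serpina1c had signals of 816.7 and 696.7, then 274.8 and 520.3, and that of Serpina1d had 232.5 and 180.3, then 59.5 and 137.1. RNA A of the male array was the lowest channel for both, as it was for Serpina1a. Cps1, the urea cycle enzyme gene, had signals of 20.8 and 18.1 on the female array and of 13.1 and 12.5 on the male array, and its log2 ratios of 0.20 and 0.06 were small on both.

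Second probes gave the pattern again for most genes that had them. Of 8 genes with 2 probes, all 8 second probes had a log2 ratio below 0 on the male array, 6 were at least 1.5-fold brighter in RNA B there, and 5 of those were well above background in all 4 channels. The second probe of Serpina6 gave -0.91 on the male array where the first gave -0.45, so this gene fell on either side of 1.5-fold by the choice of probe. The second probe of Trf gave -0.52.

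Compared within an RNA, the change lay mainly in RNA A. RNA A was at least 2-fold dimmer on the male array than on the female array for 19 of the 31 genes, against 1.21% of all genes tested, and RNA B for 0 of the 31, against 0.994% of all. The median log2 difference between the male and the female array was -1.19 for RNA A and -0.39 for RNA B, where all genes tested had medians of 0.07 and 0.06. RNA A of the male array was the dimmest of the 4 channels for 26 of the 31 genes and for 16.02% of all genes tested. These differences within an RNA compare female with male pools and red with green dye at once.

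The red dye was on RNA A in the female hybridisation and on RNA B in the male one. Of the 31 genes, 18 had a ratio below 0 on both arrays, 10 had the brighter signal in the red channel of both, and 2 had a ratio above 0 on both. Among all genes tested, 17.4% had a ratio below 0 on both arrays, and 28.4% had the brighter signal in the red channel of both. Of the 19 genes at least 1.5-fold brighter in RNA B on the male array, 12 had a ratio below 0 on both arrays, and the other 7, Alb, Gc, Apoa1, Apoa2, Fgb, Fgg and Serpina1a, were brighter in the red channel of both. The part of the dye in this pattern was not tested.

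**Figure D3:**
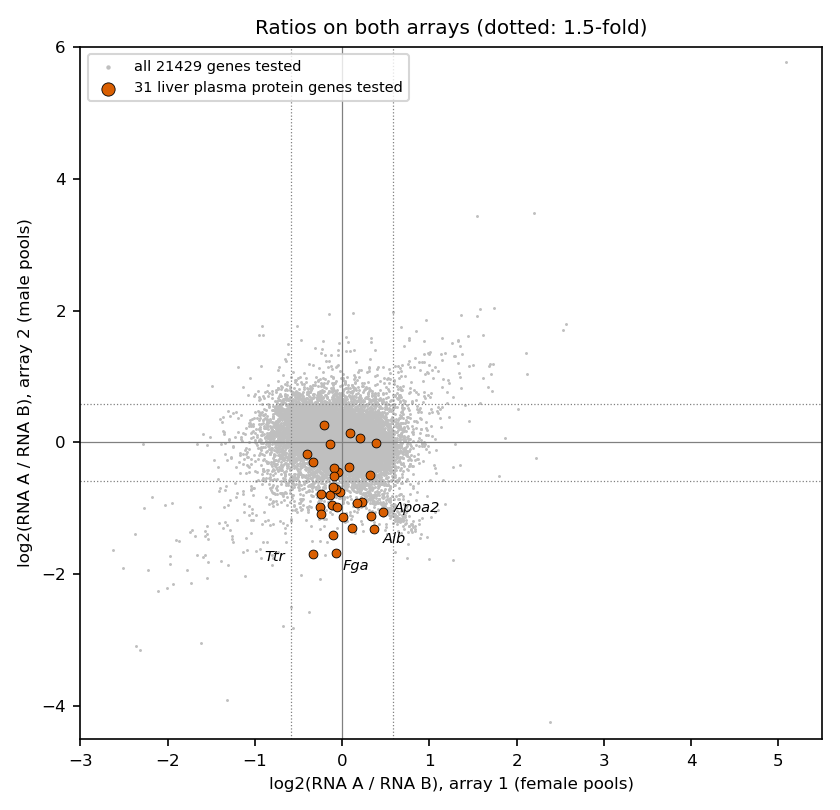
Log2 ratio of RNA A over RNA B on array 1 (horizontal) against array 2 (vertical) for all 21429 genes tested (grey) and the 31 liver plasma protein genes (orange); dotted lines mark 1.5-fold. The orange points stay within 1.5-fold on the horizontal axis and reach down to -1.69 on the vertical one.

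Other genes of the liver were read in the same way. Of 65 further plasma protein genes, 44 were tested, of which 12 (27.3%) were at least 1.5-fold brighter in RNA B on the male array and 0 in RNA A, and their median log2 ratio there was -0.21. Several of the 12 are copies or close relatives of the genes above, among them Serpina1c, Serpina1d and Serpina1e. Spp2, which encodes a secreted phosphoprotein of the cystatin superfamily, had signals of 83.1 (RNA A) and 107.9 (RNA B) on the female array, and of 33.5 and 198.4 on the male array, with log2 ratios of -0.38 and -2.57 and a limma adjusted p of 0.549. Cp, the copper oxidase gene ceruloplasmin, had log2 ratios of 0.57 and 0.08, and the growth factor gene Igf1 had -0.28 and -0.26.

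Of 27 tested genes of liver enzymes and transporters, 5 were at least 1.5-fold brighter in RNA B on the male array and 6 on the female array. On the female array this held for 0 of the 31 liver plasma protein genes and for 1 of the 44 further ones. Cyp2e1, a cytochrome P450 gene, had log2 ratios of 0.89 and 0.38, brighter in RNA A on both arrays.

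Of 15 tested genes of transcription factors that drive liver genes, 0 were at least 1.5-fold brighter in RNA B on the male array and 2 were brighter in RNA A, with a median log2 ratio of 0.29. On the female array the list lay the other way, with 3 genes at least 1.5-fold brighter in RNA B, 0 in RNA A and a median of -0.22. The list is not particular to the liver, since it shares a gene with the urothelial list. Hnf4a had signals of 64.9 (RNA A) and 77.5 (RNA B) on the female array, and of 48.7 and 44.75 on the male array. The tyrosine aminotransferase gene Tat, a hepatocyte marker, was level at 30.7 and 29.7, then 29.3 and 30.0. Of the hepatocyte markers Alb, Afp, Ttr, Apoa1, Hnf4a, Foxa3, Tat and Cps1, all 8 were tested, and 4 of them, the first 4 named, were at least 1.5-fold brighter in RNA B on the male array. Their summed signals were 6322 (RNA A) and 6067 (RNA B) on the female array, and 2052 and 5201 on the male array, but 5 of the 8 are themselves among the plasma protein genes and Alb and Afp make up most of the sum. The signals of the other 3, Hnf4a, Foxa3 and Tat, summed to 105.2 (RNA A) and 121.4 (RNA B) on the female array. On the male array they summed to 82.6 and 78.4, where RNA A was not the lower one. Hnf4a made up most of these low sums, Tat was level, and Foxa3 was well above background in only 3 of the 4 channels.

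Markers of other cells were read beside these values. Among 15 genes of the fetal erythroid lineage, which fills the fetal liver, 0 were at least 1.5-fold brighter in RNA B on the male array. The summed signals of the erythroid markers Alas2, Slc4a1 and Klf1 came to 6039.9 (RNA A) and 7608 (RNA B) on the female array, and 4442 and 3684 on the male array. RNA A was therefore not the lower RNA of the male array for this sum, of which Alas2 alone made up most. The anion exchanger gene Slc4a1 had log2 ratios of -0.63 and -0.01, and the transferrin receptor gene Tfrc had -0.20 and -0.33.

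Of 9 tested genes of sinusoidal, stellate and other non-hepatocyte cells of the liver, 1 was at least 1.5-fold brighter in RNA B on the male array. That gene was Lrat, of retinol storage, with log2 ratios of -0.08 and -0.62. Stab2, a scavenger receptor gene of the sinusoidal endothelium, had signals of 243.9 and 210.3, then 312.7 and 221.8, brighter in RNA A on both arrays (log2 ratios 0.21 and 0.50), and the matrix gene Dpt had -0.06 and -0.38. In the visceral endoderm list the count was 1 of 11 tested genes, and in the intestinal epithelium list 1 of 9. The endocytic receptor gene Cubn had -0.53 and -0.38, and the intestinal and superficial cell keratin gene Krt20 had -1.96 and -0.92.

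Genes of the ureter and its surroundings also differed between the RNAs, and in part on both arrays. At least 1.5-fold brighter in RNA B on the male array were 5 of 10 tested genes of the kidney proximal tubule, 5 of 15 urothelial genes and 5 of 9 genes of the ureteric mesenchyme, and on the female array these counts were 3, 9 and 0. The uroplakin genes Upk3b and Upk1a had limma adjusted p-values of 0.020 and 0.045, with mean log2 ratios of -1.69 and -1.32. These genes, like Krt20, were dimmer in RNA A on both arrays. That is lower in Pparg-cKO by the reading of the study's text and higher in it by the sample labels. By RNA in situ hybridisation, which does not depend on the array dyes, the study's text describes Upk3b, Upk1a and Krt20 as reduced or absent in Pparg-cKO ureters. Slc34a1, the phosphate transporter gene of the proximal tubule, named after its values were seen, had log2 ratios of -2.31 and -3.15 (limma adjusted p = 0.012) at low signals of 6.20 (RNA A) and 30.8 (RNA B) on the female array, and of 4.20 and 37.2 on the male array, where 3 of the 4 channels were well above background. Depending on the processing, between 0 and 69 genes in all passed limma at an adjusted p under 0.05. The 5 mesenchymal genes counted on the male array were all of smooth muscle, among them the myosin gene Myh11, with -0.42 and -1.18. For these 5, as for most of the liver plasma protein genes, the male array gave the larger excess of RNA B. The rest of the mesenchymal list, such as Tbx18 (0.11 and -0.08), lay within 1.5-fold on both arrays. The part of tissue composition in the ratios of the plasma protein genes was not tested.

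Genes of plasma protein receptors and of iron and heme handling stayed within 1.5-fold on both arrays. This held for all 14 tested receptor genes, with medians of -0.21 on the female array and -0.15 on the male array, and for all 10 tested genes of iron and heme handling, with medians of -0.08 and 0.15. Lrp2, which encodes the endocytic receptor megalin, had log2 ratios of -0.23 and -0.46, and the vitamin B12 carrier receptor gene Cd320 had 0.42 and 0.34. The heme oxygenase gene Hmox1 had 0.38 and 0.16, and the iron transporter gene Slc11a2 had -0.20 and -0.16.

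**Figure D4:**
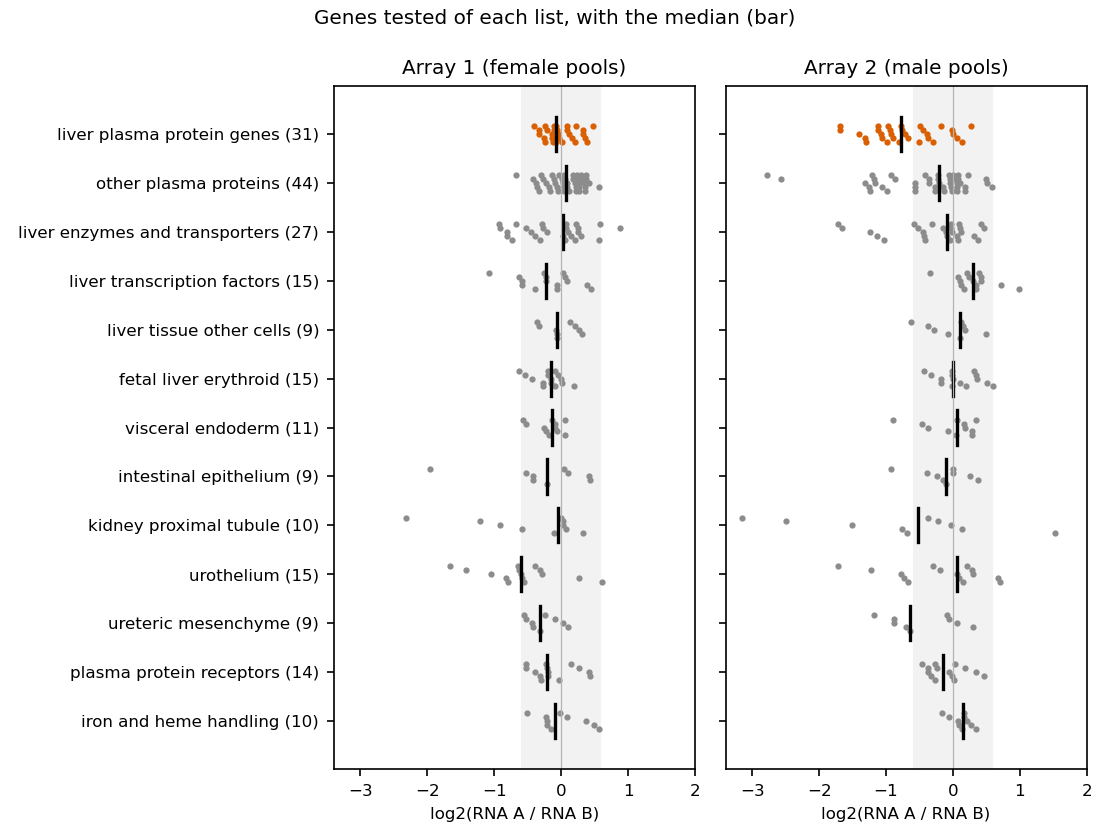
Log2 ratio of RNA A over RNA B for the tested genes of 13 lists on array 1 (left) and array 2 (right), with the number tested in brackets and the median as a bar; the grey band marks 1.5-fold. On array 2 the median of the liver plasma protein genes was -0.78, and those of the other 12 lists lay between -0.64 (ureteric mesenchyme) and 0.29, with the kidney proximal tubule at -0.53. In the mesenchymal list the genes left of the band on array 2 were those of smooth muscle.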

How the data were processed

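Intensities were deposited as processed by Agilent Feature Extraction 10.7.3.1 (version per the labels), which background-subtracted them, set surrogates near background and normalised the dyes within each array by a linear step and LOWESS, so that ratios of dim or dye-biased probes depend on those steps. The deposited log10 ratio was used only to check the dyes. The authors' own deposited table, a signed fold score for each probe on each array whose direction is unstated, served as an alternative.

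Control spots and flagged spots were left out, and log2 intensities were averaged per probe, of which 28328 of 39429 were named through RefSeq (GRCm38.p6). The probe brightest on average stood for a gene. Genes well above background (at least 0.5 of kept spots) on both arrays in at least 1 RNA were fitted with limma 3.58.1 (intercept, eBayes, R 4.3.3) on 2 log2 ratios with 1 residual degree of freedom and Benjamini-Hochberg adjustment over 21429 genes at 0.05. The fit was tested on simulated data. In addition, the study's filter was applied as 1.5-fold on both arrays with a signal of 100 in the brighter RNA. Both arrays lay on 1 slide read in 1 scan, and no spot was saturated.

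The genes described and all gene lists were chosen with earlier results of these data known. All 34 genes were accounted for, with each channel given where a gene was well above background in both RNAs. From each other list, at most 3 genes were named, those with the largest mean ratio of 1 direction and a signal of at least 100, beside markers. A few of these genes are not reported here. Alternatives were normexp (offset 50) with loess, loess on processed signals, median centring, the deposited table, the mean of all probes, other filters, an intensity trend, other thresholds and leaving out each array. Those of the count on array 2 alone were chosen after seeing the data. Promoter windows were searched and figures drawn with Python 3.11.15 and matplotlib 3.10.9.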

Additional observations from a re-analysis of the deposited data

Results flagged for a closer look

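In 8 liver plasma protein genes the array of female pools and the array of male pools moved in opposite directions, each by more than the SD of its spots, with RNA A brighter on array 1 and RNA B brighter on array 2. The log2 ratio of array 1 minus that of array 2 was 1.67 for Alb, 1.45 for Apoa1, 1.53 for Apoa2, 0.45 for Apoc2, 1.41 for Fgb, 1.13 for Fgg, 0.82 for Vtn and 1.09 for Serpina1a. Since RNA A was red on array 1 and RNA B on array 2, this direction is the same as the brighter RNA carrying the red dye. For all 8 that is a restatement and no further observation. This opposition was not tested, as there was 1 array per sex, and sex and dye cannot be told apart.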

How the results depend on the processing

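In limma, 0 of the liver plasma protein genes passed under any of the 8 alternatives fitted, and between 0 and 6 had an unadjusted p under 0.05. The count of all genes called was 67. It was 69 with an intensity trend, 59 with the mean of all probes and 53 with a filter on both RNAs. It was 28 with loess on the processed signals, 1 with normexp and loess and 1 with median centring. With the deposited table it was 0, and without the filter on dim probes it was also 0. With 1 array left out limma has no residual degrees of freedom, so its count was not run. The median log2 ratio of -0.39 lay between -0.40 and -0.31 under other scalings, probe rules and filters, and between -0.78 and -0.07 with 1 array left out, of which array 2 alone gave -0.78. The count at least 1.5-fold brighter in RNA B with a signal of 100 was 0 on both arrays, 4 when the mean of the arrays was used, and between 0 and 10 with 1 array left out, 10 on array 2 alone. In RNA A it stayed 0. On array 2 alone, with no signal threshold, the count was 19, against 15 with normexp and loess, 21 with the mean of all probes and 10 with a signal of 100, alternatives chosen after seeing the data. The 19 were of 31 genes tested. Only 16 of the 31 had a signal of 100 in the brighter RNA of both arrays, and the 10 were among these. The mean log2 ratio of Apob, 0.03, was -0.0046 with normexp and loess and -0.30 with the mean of its probes, and the cause was not tested. The other 32 genes kept the direction of their mean under the alternatives that use both arrays, except that Apoa4 and Fetub are listed at 0 in the deposited table, while 11 tested genes had opposite signs on the single arrays. Signals near background limit Apoa4, Fetub, Apob and Cps1, and also Fga, with 9.08 in RNA A of array 2. The mean log2 ratio of Fga, -0.88, was -0.43 with normexp and loess.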
